A study of Ginkgo biloba with 9 samples.

Results

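In the leaf transcriptome of Ginkgo biloba, 47 of 41309 listed genes were lower under both denser plantings than under the control density. By the rule that chose them, the falls at the denser plantings lay within a set limit of each other. The plants were 2-year-old trees of the cultivar Fozhi grown in a nursery for leaf harvest, and leaves were sequenced at 3 densities with 3 libraries each: CK, the control, at 20 plants per square metre, MD at 40 and HD at 80. The groups differ in no other labelled respect, and all of them received ample light on fertile, well-drained soil, per the labels. The labels do not tell if the libraries at one density are separate trees, pools or plots, so a p-value here reflects no more than the spread among the libraries, part of which may be technical. Density and any difference between the plant lots or plots used for it cannot be told apart.

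The 47 genes were chosen by their measured FPKM (sequenced fragments divided by library size and by gene length in kilobases, which makes levels comparable between genes). A gene had to reach an FPKM of 1 in at least 3 of the 9 libraries, average under 1000 FPKM and be above 0 in at least 1 library of each density. On means of log2(FPKM + 1) it had to be lower than CK by at least 1 in both MD and HD, with MD and HD less than 0.4 apart, and all 3 CK libraries had to lie above the 6 others. The contrasts of CK with the denser plantings, and the limit on HD against MD, are therefore built into the set, and the values below describe it without testing it. Starting from 19692 genes that met the limits on level, 220 were lower by 1 or more in MD and 524 in HD, and 91 in both. Of these 91, the CK libraries lay above all others in 90. Among those 90, HD was a further 0.4 or more below MD in 30 and 0.4 or more above MD in 13, which left the 47.

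Crowded plants shade each other and share water and nutrients. In seed plants generally, phytochromes sense the drop in red relative to far-red light under neighbours, and many growth, photosynthesis and defence genes respond to it. In ginkgo, interest in planting density comes from the leaf, whose extracts carry flavonol glycosides and terpene lactones. Which of these processes the 47 genes belong to was not examined: the deposited table lists identifiers without gene names, and no annotation or sequence was used here. The genes are therefore described by identifier, level and pattern only. Since whole leaves were sampled, fewer cells of a type and less RNA per cell cannot be told apart.

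The members ranged from barely expressed to abundant genes. Their mean FPKM in CK ran from 1.32 to 637 with a median of 9.14, beside a median of 10.5 over the 19854 genes that reached an FPKM of 1 in 3 libraries (the tested genes). Of the members, 24 had a CK mean under 10 FPKM (51.1%, against 48.9% of tested genes), 18 lay between 10 and 100 (38.3% against 42.4%) and 5 reached 100 (10.6% against 8.66%). Under the denser plantings their median was 3.29 FPKM in MD and 3.38 in HD. At those densities 12 members still had means of 10 FPKM or more in both groups, and 6 had means under 1 in both. In 5 members an FPKM of 1 was reached in the CK libraries only, so those passed the limit on level through the group in which they are high.

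**Figure D1:**
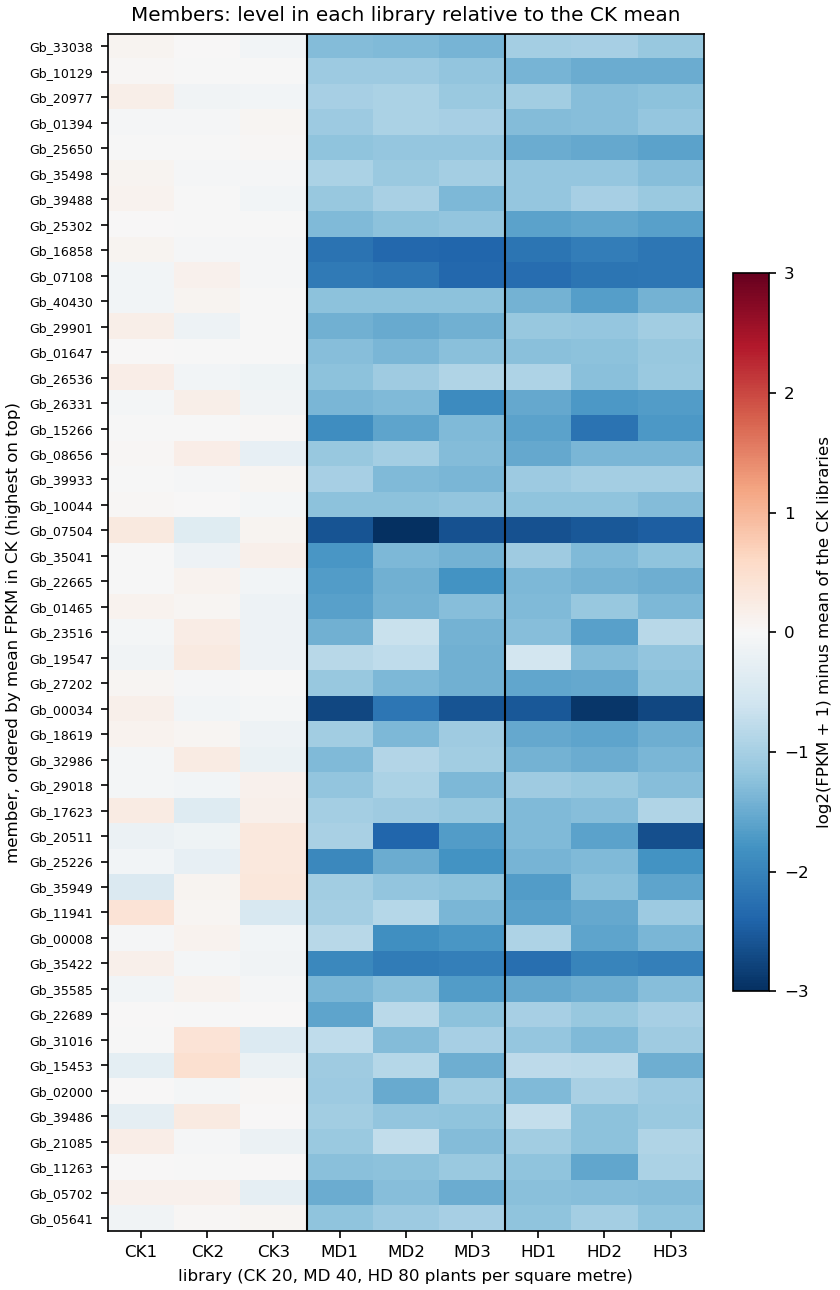
Level of each of the 47 members (rows, highest CK mean on top) in each of the 9 libraries (columns), as log2(FPKM + 1) minus the mean of the 3 CK libraries. All cells of MD and HD are below 0, and the columns of MD and HD differ little from each other beside their distance from CK.

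Taken as a sum, the members were at about 40% of their CK level in both denser plantings. Their summed FPKM was 2035, 1942 and 1895 in the CK libraries, 795, 802 and 758 in MD, and 803, 781 and 763 in HD. The CK libraries stood far above the rest, and MD and HD overlapped. The CK mean was 1957 ± 71.3 FPKM, the MD mean 785 ± 23.9 and the HD mean 783 ± 20.3 (SD, n = 3), so that MD held 40.1% and HD 40.0% of the CK sum. FPKM values move in whole steps of 1 read, and reads counted from those steps gave the same picture. The members took 0.179% ± 0.00364 of all reads in CK, against 0.0734% ± 0.00155 in MD and 0.0742% ± 0.00184 in HD (SD, n = 3). One gene, Gb_33038, made up 32.6% of the CK sum and the 5 most abundant members 63.0%. Without Gb_33038 the sums were 1298 to 1358 in CK, 518 to 547 in MD and 465 to 488 in HD, and the HD libraries then lay below all MD libraries.

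For a typical member, MD retained 32.9% and HD 32.5% of the CK level (medians of the 47). The lowest share was 2.80% in MD and 2.13% in HD, and the highest 49.3% and 48.3%. On the log2(FPKM + 1) scale the median fall from CK was 1.22 to MD and 1.27 to HD, beside medians of 0.00068 and -0.0032 over the tested genes. Both falls reached 1.5 in 9 members and 2 in 5. The clearance between the groups varied: the lowest CK library exceeded the highest denser library by a factor of 1.36 to 11.7, with a median of 2.15, and by a factor of at least 2 in 29 members. All 47 were called lower in MD (18.6% of tested genes were; limma, Benjamini-Hochberg adjusted p under 0.05), in HD (26.6%), and in both at once (12.7%), which the choice of members fixes.

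**Figure D2:**
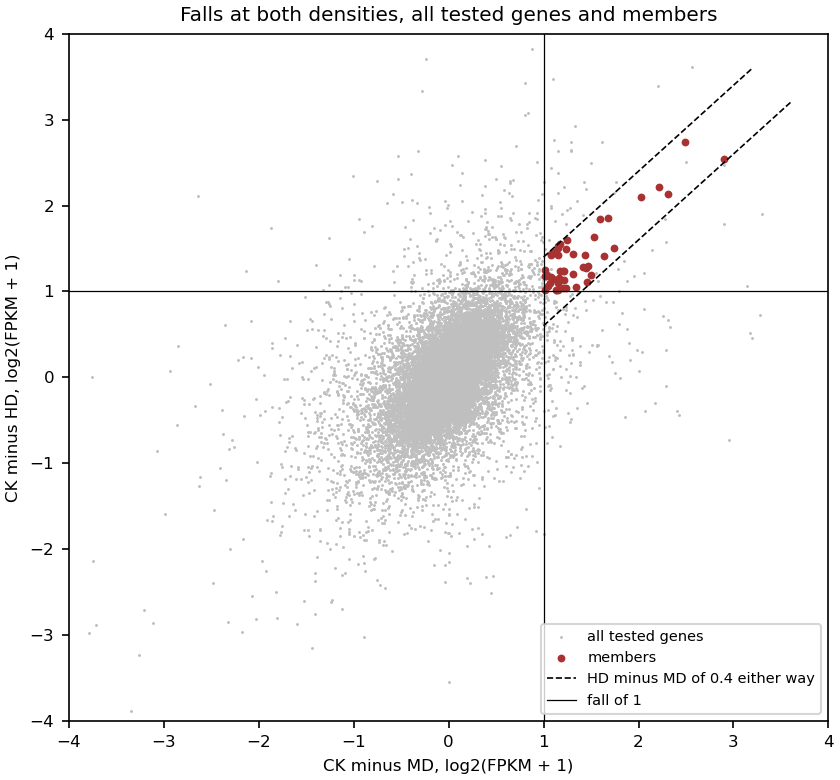
Each point is a gene, placed by its mean log2(FPKM + 1) in CK minus that in MD (x axis) and CK minus that in HD (y axis), with the 47 members coloured among the 19854 tested genes, of which 10 lie beyond the axes. Solid lines mark the fall of 1 and dashed lines the limit of 0.4 between HD and MD, and most members sit near the corner at a fall of 1 in both.

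The most abundant member was Gb_33038. Its FPKM was 677, 637 and 597 in the CK libraries, 259, 255 and 239.5 in MD, and 316, 316 and 290.4 in HD. CK lay far above both, and every HD library was above every MD library. The means were 637 ± 40.2, 251 ± 10.4 and 307 ± 14.8 FPKM (SD, n = 3), a log2 fall of 1.34 to MD and of 1.05 to HD (SE 0.0515 for each). With 9430 to 10950 reads per CK library and at least 2993 in each of the others, counting error is small for this gene.

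Gb_10129, the next in level, leaned the other way between the denser plantings. It had 179, 171 and 171 FPKM in CK, 81.1, 80.4 and 76.1 in MD and 65.4, 61.2 and 61.4 in HD. Here every HD library was below every MD library, with log2 falls of 1.12 to MD and 1.45 to HD (SE 0.0421). Gb_20977 had 167, 136 and 138 FPKM in CK, then 73.5, 75.7 and 67.7 in MD and 70.9, 60.1 and 62.4 in HD, so CK1 was the high library of its group and MD and HD overlapped. Gb_01394 had 135, 137 and 146 FPKM in CK, 65.2, 71.1 and 69.5 in MD, and 55.9, 56.9 and 61.3 in HD, with HD below MD throughout. Although abundant, the last 2 genes had the smallest lesser falls of the set, at 1.01 each to MD (SE 0.0838 and 0.0508), and so lie just inside the limit.

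Among the members, the deepest falls, taken as the lesser of a gene's 2 log2 differences from CK, were in genes of low to middle level. Gb_07504 led with 19.4, 11.8 and 16.4 FPKM in CK against 1.73, 0.470 and 1.72 in MD and 1.70, 1.84 and 1.96 in HD. CK2 was low within its group but still several times above all denser libraries, and MD2 was the lowest of the 9. The log2 falls were 2.899 and 2.55 (SE 0.237), from 299 reads over the CK libraries to 20 in MD and 31 in HD. Gb_00034 had 7.35, 6.08 and 6.29 FPKM in CK, 0.146, 0.688 and 0.258 in MD, and 0.287, 0 and 0.133 in HD. It fell by 2.49 and 2.74 (SE 0.171), and its denser libraries rest on 0 to 13 reads each.

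Gb_07108 and Gb_16858 combined deep falls with levels at which counting error is modest. Gb_07108 had 46.3, 54.0 and 48.0 FPKM in CK, 10.5, 10.2 and 8.85 in MD and 9.34, 10.1 and 10.1 in HD. Its MD and HD means, 9.85 ± 0.885 and 9.84 ± 0.437 FPKM, differed by 0.0009 on the log2 scale (SE 0.0807). Gb_16858 had 62.6, 57.3 and 57.2 FPKM in CK, 11.98, 10.7 and 10.6 in MD and 12.2, 13.3 and 12.4 in HD. All HD libraries of Gb_16858 were above all MD libraries, although the difference of 0.17 (SE 0.0671) was not called. By reads, CK exceeded MD and HD 5.04-fold and 5.05-fold for Gb_07108, and 5.34-fold and 4.66-fold for Gb_16858 (exact 95% intervals 4.48 to 5.68, 4.50 to 5.68, 4.87 to 5.87 and 4.28 to 5.08, covering counting error only). The intervals make no allowance for the choice of these genes by the same falls.

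**Figure D3:**
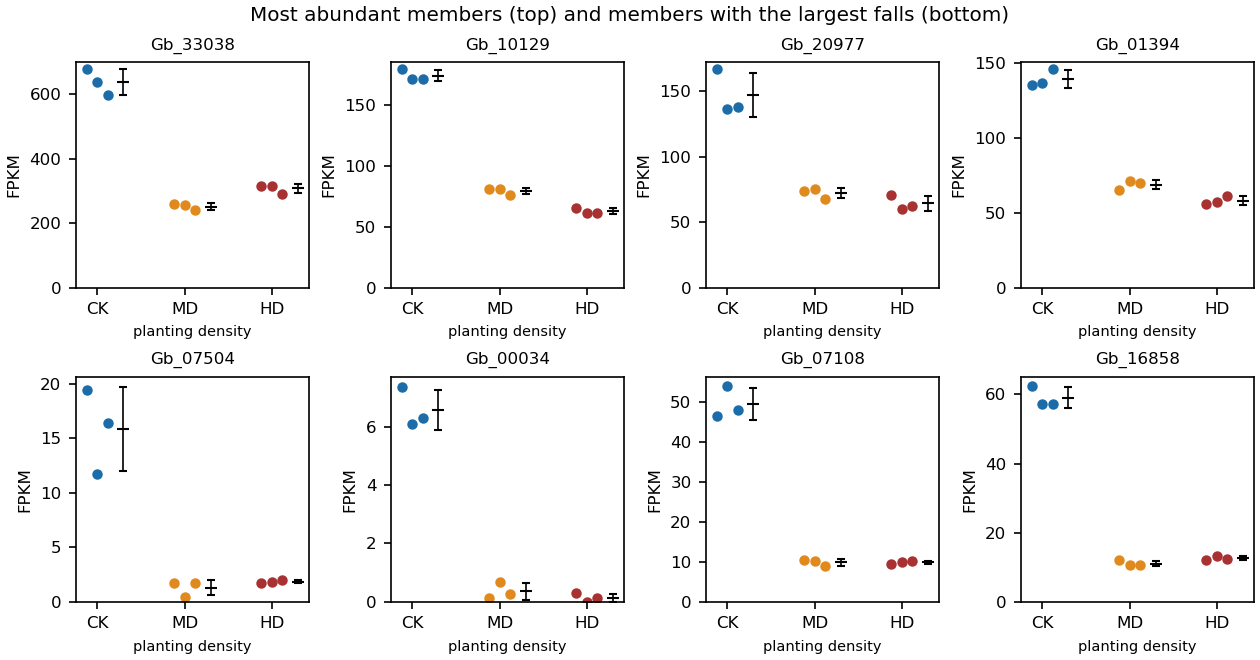
FPKM in each library (points, axis from 0) by planting density, with mean and SD (bars, n = 3), for the 4 most abundant members in the upper row and the 4 with the largest lesser fall in the lower row. In all 8 genes the CK points stand clear of the MD and HD points; Gb_33038 is higher in HD than in MD, and Gb_10129 and Gb_01394 are lower.

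In 5 members both denser plantings had a mean under 0.5 FPKM, which makes them near silent there. These genes, singled out after their values were seen, are Gb_00034, Gb_35422, Gb_11263, Gb_05702 and Gb_05641. The log2(FPKM + 1) scale understates their change from CK and also any difference between MD and HD. Gb_00034 had means of 0.364 FPKM in MD and 0.140 in HD, from 19 and 7 reads. Gb_05702 had 0.0510 and 0.152 FPKM, from 3 and 8 reads. Gb_35422 went from 4.63, 3.91 and 3.74 FPKM in CK to between 0.186 and 0.320 in MD and between 0.0503 and 0.297 in HD, or from 263 reads to 13 and 11. Scaled for depth, CK held 17.2 times the reads of MD, with an exact 95% interval from 9.88 to 32.7, and 21.2 times those of HD (11.7 to 43.1). These intervals and those that follow cover counting error only. They make no allowance for the choice of the genes by the same differences, so they describe the genes and test nothing.

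Gb_00034 showed the highest read ratio to HD, 46.9 (22.6 to 118), beside 16.6 to MD (10.4 to 27.8). For Gb_05702 the ratio was 30.3 to MD (10.1 to 149), from 107 reads against 3, and 11.9 to HD (5.81 to 28.2). For Gb_05641 it was 15.6 (6.46 to 49.3) and 27.2 (9.03 to 134), from 92 reads against 5 and 3. Gb_11263 was the mildest of the 5, with 6.80 (4.09 to 12.01) and 7.55 (4.48 to 13.6). Both ratios of a gene share its CK reads, so they do not compare MD with HD. These are also the 5 members that reached an FPKM of 1 in the CK libraries only. Libraries listed at 0 occurred in 5 members, and a library with 0 reads still allows up to 3.

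Within CK, the members' coefficients of variation were somewhat above those of other genes of like level, a difference that was not tested. The median coefficient of variation over the CK libraries was 10.3%, beside 7.59% over all tested genes. For members with a CK mean of 10 FPKM or more it was 6.31%, beside 4.88% for tested genes of that level, and for members below it was 16.5% beside 13.0%. In MD the median was 17.1% and in HD 11.2% (tested genes 7.74% and 7.75%), not compared at like level. The members' median FPKM was 3.29 in MD and 3.38 in HD, and the reason for these variations was not tested. Of the 10 members with a variation of 20% or more in CK, 9 had a CK mean under 10 FPKM.

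The steadiest and the least steady CK values show that range. Gb_01647 had 25.20, 24.997 and 24.80 FPKM in CK (0.803%), 9.71, 9.004 and 9.86 in MD, and 9.89, 10.1 and 10.9 in HD. Gb_22689 had 3.82, 3.73 and 3.80 FPKM in CK (1.14%), but from 0.591 to 1.72 in MD and from 1.19 to 1.397 in HD. At the other end, Gb_15453 had 2.58, 5.13 and 2.87 FPKM in CK (39.7%), with 0.580 to 1.42 in MD and 0.595 to 1.55 in HD. Only 68 reads over the 3 CK libraries stand behind it, the fewest of any member. Gb_11941 had 5.88, 4.36 and 2.68 FPKM in CK (37.2%), with 0.998 to 1.84 in MD and 0.665 to 1.41 in HD.

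The order of the libraries within each density varied from member to member. The highest CK value came from CK1 in 21 members, from CK2 in 14 and from CK3 in 12, and CK1 was also the most frequent highest library over the tested genes (44.7% of members, 35.3% of tested genes). The members' median deviation from the group mean, on the log2 scale, lay between -0.0303 and 0.0097 in CK, between -0.0570 and 0.0259 in MD and between -0.0269 and 0.0142 in HD. The lowest was MD3, which was the highest MD library in 9 of 47 members (19.1%, against 33.4% of tested genes).

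The word "alike" stands for a difference of under 0.4 between the denser plantings, which the rule demands of every member. Its sign is free: HD was below MD in 27 members and above it in 20 (57.4% below, 49.2% of tested genes). The median HD minus MD was -0.03, and 0.014 when total-read scaling replaced the authors' library sizes, so the sign of the median rests on the scaling. The difference was within 0.1 in 14 members and within 0.2 in 29. Of the 47, 9 were called different between HD and MD (43.1% of tested genes were), with 7 lower and 2 higher in HD, and in 15 the 3 HD and 3 MD libraries did not overlap (53.1% of tested genes). Since the rule limits this difference, the counts describe the members and nothing is read from them against the background.

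The calls were spread over the levels as follows. Among the 23 members with a CK mean of 10 FPKM or more, 8 were called (34.8%, beside 52.0% of tested genes of that level) and the median SE was 0.0822. Among the 24 below that level, 1 was called (4.17%, beside 33.8%) and the median SE was 0.173.

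Those differences went in both directions. Gb_25650 had the most negative one, with 134, 133 and 139 FPKM in CK, 58.4, 60.4 and 59.7 in MD and 47.4, 45.7 and 43.5 in HD (HD minus MD -0.38, SE 0.0419). Gb_18619, at a low level, had 6.15, 5.95 and 5.04 FPKM in CK, 2.24, 1.63 and 2.19 in MD and 1.31, 1.24 and 1.41 in HD (-0.37, SE 0.122). In both genes all HD libraries were below all MD libraries. The most positive differences were those of Gb_07504, described above (0.35, SE 0.237, not called, with overlapping groups), and Gb_29901. The latter had 33.9, 26.8 and 29.6 FPKM in CK, 10.5, 9.94 and 10.3 in MD and 13.1, 12.8 and 13.99 in HD (0.35, SE 0.0822), and its HD libraries were all above MD. Of the 5 members with a CK mean of at least 100 FPKM, 4 were lower in HD than in MD, 3 of them called, and Gb_33038 was higher.

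The other 3 called members, named after their values were seen, were Gb_35498, Gb_25302 and Gb_40430, all of middle level and all lower in HD. Gb_35498 had 99.1, 91.3 and 92.1 FPKM in CK, 48.0, 42.6 and 46.0 in MD and 41.7, 41.6 and 38.3 in HD (HD minus MD -0.16). Gb_25302 had 61.2, 59.6 and 60.3 FPKM in CK, 23.4, 25.3 and 25.9 in MD and 19.0, 20.0 and 18.8 in HD (-0.35). Each step down left the libraries of the 3 densities apart in both genes. Gb_40430 did the same, from 44.2, 49.5 and 46.4 FPKM in CK to 19.2, 19.4 and 19.2 in MD and 16.9, 14.1 and 16.9 in HD (-0.26).

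Some of the remaining members, also named after their values were seen, varied in how their MD and HD libraries compared. Gb_10044 had 19.7, 19.1 and 18.4 FPKM in CK, 7.60, 7.52 and 7.76 in MD and 7.70, 7.68 and 7.15 in HD. Its HD minus MD in the log2 mean was -0.021. Gb_15266 had steady CK values of 19.8, 20.0 and 20.5 FPKM but spread from 4.78 to 7.37 in MD and from 3.55 to 5.87 in HD. Gb_35041 had 13.4, 12.2 and 15.3 FPKM in CK, 3.35, 4.72 and 4.47 in MD and 6.003, 4.80 and 5.33 in HD. Its HD libraries were all above MD, by 0.31 in the log2 mean, without a call. The least clear separation was that of Gb_19547, with 6.95, 9.42 and 6.68 FPKM in CK, 3.81, 4.09 and 2.16 in MD and 4.91, 2.47 and 2.77 in HD. Its lowest CK library exceeded HD1, the highest denser library, by a factor of 1.36.

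**Figure D4:**
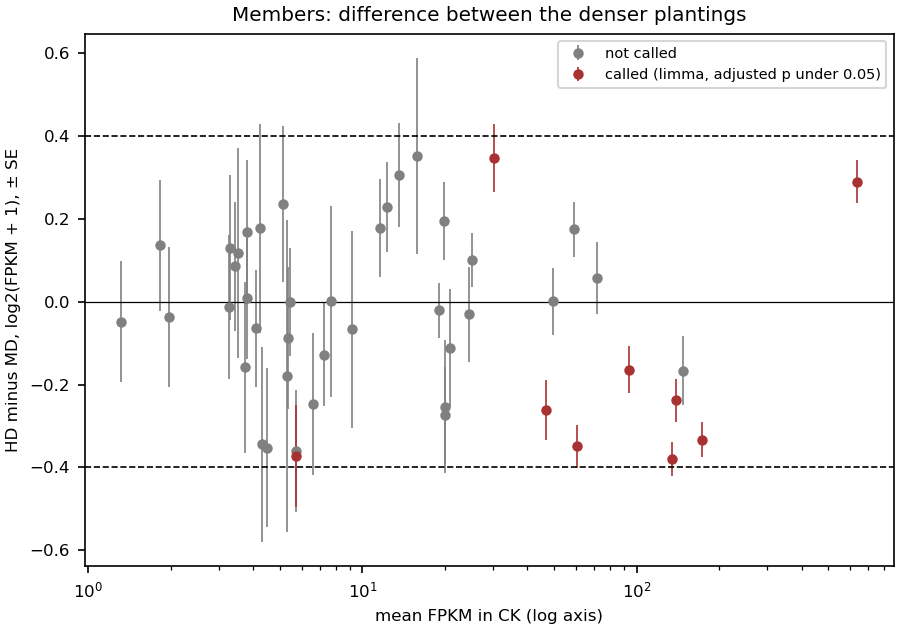
Difference HD minus MD on the log2(FPKM + 1) scale with its SE (y axis, limma, 9 libraries in one fit) against mean FPKM in CK (log x axis) for the 47 members. The 9 called members are coloured, 8 of them at a CK mean of 10 FPKM or more, and dashed lines mark the limit of 0.4 used in choosing the members.

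At the edges of the rule, genes inside and outside differed little in the value that was limited. Just outside the fall limit stood Gb_40333, with a CK mean of 15.3 ± 1.09 FPKM, against 7.23 ± 1.27 in MD and 6.47 ± 0.282 in HD (SD, n = 3), whose fall to MD was 0.9986. Next came Gb_06671, with 1.75 ± 0.234, 0.259 ± 0.182 and 0.387 ± 0.0399 FPKM and a fall to HD of 0.986. Gb_20977 and Gb_01394, just inside, fell by 1.0107 and 1.0109 to MD. Beyond the limit between HD and MD, the nearest genes were Gb_20922 (HD minus MD -0.41) and Gb_31420 (0.43). Gb_31420 would have been the second most abundant member: it had 321, 322 and 338 FPKM in CK, 47.4, 38.5 and 43.0 in MD, and 59.9, 56.8 and 57.4 in HD.

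Because all 9 libraries chose the members, the rule was also applied to 6 libraries, leaving out those of one replicate number. Its filter was scaled to an FPKM of 1 in 2 of the 6, and the 2 CK libraries had to lie above the rest. The genes chosen in this way were read in the 3 libraries left out. Without the libraries numbered 1, 46 genes were chosen, 36 of them members. In the libraries left out, CK was above both MD and HD in all 46, with median falls of 1.17 to MD and 1.26 to HD, beside 1.30 and 1.29 in the libraries that chose them. Without number 2, 52 genes were chosen (34 members) and CK was above both in 47, with medians of 1.17 and 1.24. Without number 3, 51 were chosen (39 members) and CK was above both in 48, with medians of 1.19 and 1.19.

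These counts describe the chosen genes in the libraries left out. No share over all tested genes stands beside the counts, so they are not read as support for the set. Fewer of the genes met the limits of the rule there. The libraries left out come from the same plantings, so a difference between plant lots or plots would recur in them. Both falls reached 1 in the left-out libraries for 30 of 46, 28 of 52 and 32 of 51 genes. HD and MD were less than 0.4 apart in 34, 33 and 38 genes. The median absolute difference between HD and MD was 0.298, 0.331 and 0.264 there, against 0.148, 0.142 and 0.188 in the libraries that chose. Single libraries are compared here, so these differences carry more error than group means.

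**Figure D5:**
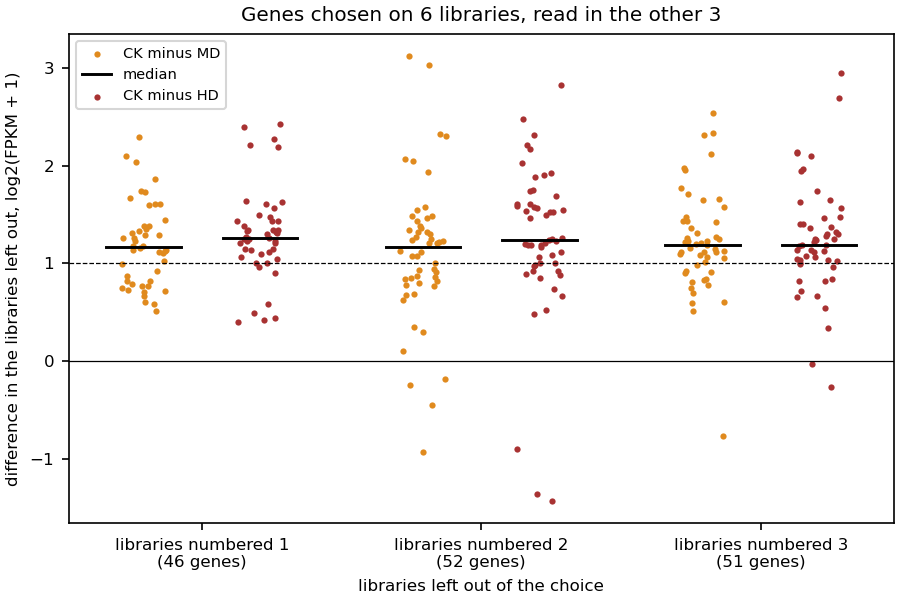
Genes chosen by the rule on 6 libraries (46, 52 and 51 genes), read in the 3 libraries left out: each point is a gene's log2(FPKM + 1) in the CK library minus that in the MD or HD library of the same number, and bars are medians. Nearly all points lie above 0, with medians between 1.17 and 1.26, and the few below 0 occur for numbers 2 and 3.

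The mirrored rule, with the signs turned, found 74 genes raised alike at both denser plantings. Their HD minus MD was as tightly held (median absolute difference 0.161, against 0.169 in the lowered genes), which the rule sets. In CK, the low group of the raised genes, 71.6% of them had a mean under 10 FPKM and 1.35% reached 100. The lowered genes, for which CK is the high group, had 51.1% and 10.6%. In their own high groups, 45.9% (MD) and 43.2% (HD) of the raised genes were under 10 FPKM, and 8.11% reached 100 in each. This comparison was not tested. Both rules demand a higher level on one side than on the other, CK for the lowered genes and the denser plantings for the raised. At their higher densities the raised genes had medians of 10.97 FPKM in MD and 12.7 in HD, beside 9.14 in CK for the lowered.

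The recovered gene-model lengths, a property that did not enter the choice except through FPKM itself, ran from 252 to 2267 nt with a median of 909 nt, beside 1149 nt over tested genes. Of the members, 29.8% were shorter than 600 nt (22.7% of tested genes). Lengths were multiples of 3 in 43 of 47 members and in 17358 of 19854 tested genes. Gb_25650 had the longest model and Gb_20511 the shortest.

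Identifier numbers gave one further description. The members' numbers were scattered, and a single pair lay within 5 of each other, Gb_39486 and Gb_39488. Gb_39488 had 77.1, 70.8 and 68.1 FPKM in CK, 32.2, 36.2 and 27.7 in MD and 31.6, 35.4 and 32.6 in HD. Gb_39486 had 2.499, 4.11 and 3.26 FPKM in CK, 1.06, 0.853 and 0.833 in MD and 1.57, 0.818 and 0.962 in HD. Gb_39487, between them in number and no member, had a CK mean of 102 ± 1.12 FPKM, against 77.2 ± 1.38 in MD and 69.4 ± 3.72 in HD (SD, n = 3). These 3 genes were singled out after their values were seen.

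Over all members, 43 genes numbered 1 above or below a member were tested and were not members themselves. Of these, 11 were called lower than CK in both MD and HD (25.6%; 12.7% of tested genes). Their median log2 difference from CK was 0.17 for MD and 0.12 for HD, and 3 had both falls of at least 0.5 (6.98%, against 3.44% of tested genes). Over all tested genes, the CK minus MD differences of 10273 pairs with consecutive numbers correlated with r = 0.152, a description across genes, which are not independent. Whether the numbers follow the order of genes on the chromosomes is not given in the sources used here, so position was not examined.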

How the data were processed

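RNA from ginkgo leaves at 3 planting densities was sequenced in 9 libraries. The authors deposited FPKM for each gene in each library, per the file headers. CASAVA 1.8, TopHat2 and RSEM appear in the submitters' processing notes, which give no roles. The sources used here do not give the genome build, the annotation or how strand and shared reads were handled.

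The members, the gene sets compared and the tests were chosen with earlier results of these data known. Groups were compared in limma 3.58.1 (R 4.3.3, with a trend of the variance on level) on log2(FPKM + 1), in one fit to all 9 libraries over the 19854 tested genes (FPKM of 1 or more in 3 or more libraries). Calls used Benjamini-Hochberg adjusted p under 0.05. A fold on this scale understates changes of low genes. The fit, the rule and the recovery of reads were tested on simulated data. Genes were named by a rule: the highest CK level (4), the largest lesser fall (4), the smallest and the largest CK variation (2 each), the most positive and the most negative HD minus MD (2 each), and the genes on both sides of the limits (2 each). Pathway lists could not be matched to identifiers.

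Reads were recovered from the FPKM, since values of a gene are whole multiples of one step after division by relative depth. Of 21602 genes detected in all libraries, 100% gave whole reads, to a tolerance of 0.001 reads beyond rounding. The recovered totals ran from 14697766 to 22435692 reads per library. The library sizes behind the deposited FPKM were 0.972 to 0.988 times these in CK, 0.999 to 1.006 in MD and 1.037 to 1.042 in HD. This factor goes with density, so the deposited FPKM shows larger falls from CK than total-read scaling does, most of all to HD. Under total-read scaling 4206 tested genes were called lower in HD, against 5286. Exact 95% intervals of read ratios, and the limit of 3 reads for a library at 0, cover counting error only: without molecular identifiers, reads may be copies of one molecule. Alternatives covered the pseudocount, the filter, scaling, the limits of the rule, a replicate block, the trend, fits to pairs of groups, limma-voom on recovered reads, and libraries left out.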

Additional observations from a re-analysis of the deposited data

Results flagged for a closer look

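Groups of 3 libraries are too few for a search for outlying samples. The one kind of result brought out here is a fall from CK that differed between MD and HD, taken from limma's calls on HD minus MD. Such a difference was called in 9 of the 47 members (19.1%), beside 43.1% of all tested genes. Since the choice of members limits this difference, the calls describe single members, and nothing is read from the count. Among the named members, HD minus MD on the log2 scale was 0.29 for Gb_33038, -0.33 for Gb_10129, -0.24 for Gb_01394, 0.35 for Gb_29901, -0.38 for Gb_25650 and -0.37 for Gb_18619, with the 3 HD libraries all on one side of the 3 MD libraries in each. The choice of members capped these differences at 0.4.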

How the results depend on the processing

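The number of members follows from the limits of the rule. A limit of 0.2 between HD and MD left 29 genes and no such limit 90, while a fall of at least 0.8 gave 107 and one of 1.5 gave 9. Other settings stayed within 1.5 times of 47, though not always with the same genes: a pseudocount of 0.1 gave 67 genes with 36 of the 47 among them, one of 0.5 gave 63 with 41, and total-read scaling, chosen after seeing the data, gave 37, all of them members. Leaving out libraries gave 42 to 55 genes. Genes raised alike outnumbered those lowered alike under each of these settings.

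All 47 members were called lower in MD and in HD under every fit run, including limma-voom, except 46 in MD with a pseudocount of 0.1. The choice of members by these same differences fixes this. Over all genes in the fits, 3170 to 4125 were called lower in MD and 4206 to 5601 in HD. Between HD and MD, 7 to 10 members were called, beside 7429 to 9065 of all genes in the fits. The replicate block gave 47, 47 and 10 calls among the members. The main fit did not treat equal numbers as pairs. Deviations of equal numbers correlated between -0.007 and 0.073, and those of unequal numbers between -0.052 and 0.043. The reading of genes in left-out libraries did group and match libraries by number, and other splits were not run.

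The median fall rose to 1.55 in MD and 1.57 in HD with a pseudocount of 0.1, since low genes then move further. The fall to HD was 1.30 under quantile normalization, 1.21 under total-read scaling and 1.24 to 1.33 with single libraries left out (1.21 to 1.26 for MD). In the libraries left out of the choice, medians were 1.17 to 1.19 for MD and 1.19 to 1.26 for HD. The median HD minus MD, -0.03, turned to 0.014 under total-read scaling, and lay between -0.092 (without MD3) and -0.010 (without HD2); the cause was not tested. Members with a CK mean under 10 FPKM had the larger median SE of HD minus MD, 0.173 against 0.0822, and how much of that is counting error was not tested.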
